A study of Caenorhabditis nigoni and Caenorhabditis briggsae with 14 samples.

Results

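The 240 genes described here were strongly female-biased in both Caenorhabditis nigoni and C. briggsae, out of 23439 genes listed. Each had at least 20 CPM, a unit that divides each count by the gene total of its library, in both female libraries, and a male to female ratio of at most 1/8 in both species. The ratio was the mean of 3 male libraries over the 1 female library, with 1 CPM added to each. Male and female levels of both wild-type strains therefore chose the genes, and those levels are given as a description. The sterile males took no part in the choice.

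All libraries were made from pools of 300 whole young adult worms by stranded sequencing of messenger RNA. ZZY10307 and ZZY10330 males were sterile, with 3 libraries each. Both strains are mostly C. nigoni, and a stretch of the X chromosome is replaced by its C. briggsae counterpart, from 4.5 to 12.2 Mb in ZZY10307 and from 16.4 Mb to the chromosome end in ZZY10330. Their males were sons of JU1421 fathers and of fertile females with the introgression, picked by the fluorescent marker cbr-myo-2::GFP, which is driven by a pharyngeal myosin promoter. AF16 is wild-type C. briggsae and JU1421 is wild-type C. nigoni, each with 3 libraries of fertile males and 1 library of females. The AF16 animals of that library are called females in the labels, although XX animals of C. briggsae normally make their own sperm before oocytes. No library was made of females with an introgression.

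In these nematodes the adult female gonad fills with large oocytes, which are loaded with maternal messenger RNA and protein for the embryo. Yolk proteins are made in the intestine of XX adults and taken up by the oocytes. Eggshell, oocyte maturation and early embryonic division also need gene products that a normal male gonad, which makes only sperm, does not require. Genes far above the male level in adult females are for this reason usually genes of oocytes, of yolk and of the female somatic gonad. The files list genes by identifier without names, so which of the 240 belong to each of these roles was not analysed here.

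Gene totals ranged from 2372653 to 3785106 counts per library, with 12516 to 15231 genes detected. Replicate 2 of ZZY10330 stood apart, with the highest total and the fewest genes detected. Whether replicates were grown separately is not stated in the labels, and the p-values therefore describe the spread among these 12 male libraries, which may be technical. The labelled sex and tissue could be checked only within the data. In the mirror list of 821 genes with at least 20 CPM in males and at least 8-fold above females in both wild-type strains, the share of counts was 26.7% ± 1.39 in JU1421 males and 24.6% ± 0.448 in AF16 males (SD, n = 3), against 0.0601% in JU1421 females and 1.43% in AF16 females. That list was chosen for this difference.

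The choice of genes spans a wide range of bias. In JU1421 the female level was 8.05 to 2645 times the male level with 1 CPM added to each, and the median was 31.8 times. In AF16 the range was 8.03 to 244 times and the median 21.7 times. A bias of 64-fold or more was found for 55 genes in JU1421 and for 13 in AF16. Just inside the threshold on the female level, 3 genes had 20.5 CPM in their lower female library, and just outside it were genes at 19.9, 19.9 and 19.5 CPM. The 3 largest ratios inside were 0.1246, 0.1246 and 0.1243, and the 3 smallest outside were 0.1254, 0.1254 and 0.1262, so the list ends in the middle of a continuous range.

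The 240 genes held a small part of the counts of every male library, and the 4 male strains did not stand at one level. Their share was 0.565%, 0.431% and 0.496% in ZZY10307 males, with a mean of 0.497% ± 0.0668 (SD, n = 3). It was 0.229%, 0.221% and 0.250% in ZZY10330 males, with a mean of 0.234% ± 0.0147. Fertile AF16 males had 0.802%, 0.658% and 0.708%, and fertile JU1421 males had 0.237%, 0.229% and 0.194%. From high to low the order was AF16, ZZY10307, ZZY10330 and JU1421. The libraries of AF16, of ZZY10307 and of the remaining pair of strains did not overlap, whereas ZZY10330 and JU1421 overlapped. The female libraries were far above all of these, at 9.99% in JU1421 (exact 95% binomial interval 9.96% to 10.02%) and 13.01% in AF16 (12.97% to 13.05%). No test was made of this share, because the genes were chosen from the wild-type libraries, and a share of counts gives more weight to long transcripts. In bulk libraries, fewer cells of a type and less RNA per cell cannot be told apart.

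**Figure D1:**
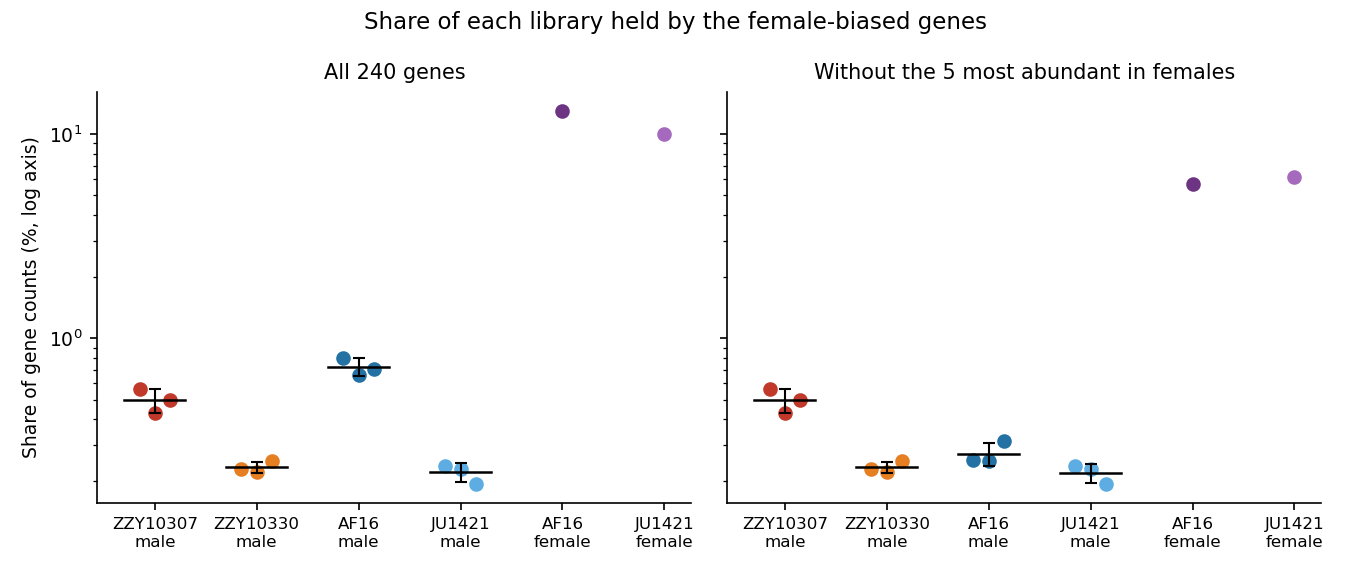
Share of gene counts (percent, log axis) held by the female-biased genes in each library, for all 240 genes and without the 5 most abundant in females. Points are libraries, and lines with bars are the mean and SD of 3 male libraries. ZZY10307 males average 0.497% with all genes, against 0.723% in AF16 males and 0.220% in JU1421 males, and without the 5 genes ZZY10307 is at 0.497%, above AF16 at 0.272%.

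The high share of AF16 males rested on 5 genes, and largely on WBGene00024796, the most abundant of them in females. Without that gene alone the share was 0.386% ± 0.0055 in AF16 males, against 0.497% ± 0.0670 in ZZY10307 males. Without the 5 genes most abundant in females the share was 0.497% ± 0.0670 in ZZY10307 males and 0.233% ± 0.0151 in ZZY10330 males, against 0.272% ± 0.0354 in AF16 males and 0.219% ± 0.0228 in JU1421 males. On that count ZZY10307 was the highest male strain, and its 3 libraries lay above all other male libraries. The excess of ZZY10307 was in turn concentrated in part. The summed level of the 240 genes was 4974 CPM in ZZY10307 males against 2200.5 CPM in JU1421 males, and 5 genes made up 47.3% of the difference. Without these 5, chosen for that difference, the share was 0.327% in ZZY10307 males and 0.214% in ZZY10330 males, against 0.689% in AF16 males and 0.181% in JU1421 males. The order of the 4 strains stayed the same without them.

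The strongly male-biased genes were lower in both sterile strains than in wild-type males, and they did not follow the share of the 240 genes over the 4 strains. Wild-type males took part in the choice of that list and sterile males did not. A high level in wild-type males was therefore built in. These 821 genes held 7.73% ± 0.675 of the counts in ZZY10307 males and 12.9% ± 2.30 in ZZY10330 males, against 24.6% ± 0.448 in AF16 males and 26.7% ± 1.39 in JU1421 males. A library with fewer counts of male-biased genes gives every other gene a larger share. Taken over the counts outside that list, the 240 genes held 0.539% ± 0.0763 in ZZY10307 males and 0.269% ± 0.0224 in ZZY10330 males, against 0.958% ± 0.0964 in AF16 males and 0.300% ± 0.0270 in JU1421 males. On this scale the mean of ZZY10307 was above that of JU1421, at 0.539% against 0.300%, and the mean of ZZY10330 was below that of JU1421. The part of the male-biased counts in the differences of share between strains was not tested.

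Most of the genes were near the detection limit in males. The median gene had a mean of 4.55 CPM in ZZY10307 males and 2.51 CPM in ZZY10330 males, against 3.84 CPM in AF16 males and 2.49 CPM in JU1421 males, 104.8 CPM in JU1421 females and 97.9 CPM in AF16 females. No count was seen in any of the 3 libraries for 56 genes in ZZY10307 and 70 in ZZY10330, against 34 in AF16 and 66 in JU1421, and 11 genes had no count in any of the 12 male libraries. All 240 were detected in both female libraries, as the choice required. A single male library detected 153 to 168 genes in ZZY10307 and 114 to 150 in ZZY10330, against 154 to 184 in AF16 and 144 to 147 in JU1421. The lowest of these, 114, belongs to replicate 2 of ZZY10330, the library that stood apart. Without it the mean share of ZZY10330 was 0.240%. At 100 CPM or more stood 11 genes in ZZY10307 and 3 in ZZY10330, against 9 in AF16 and 3 in JU1421.

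**Figure D2:**
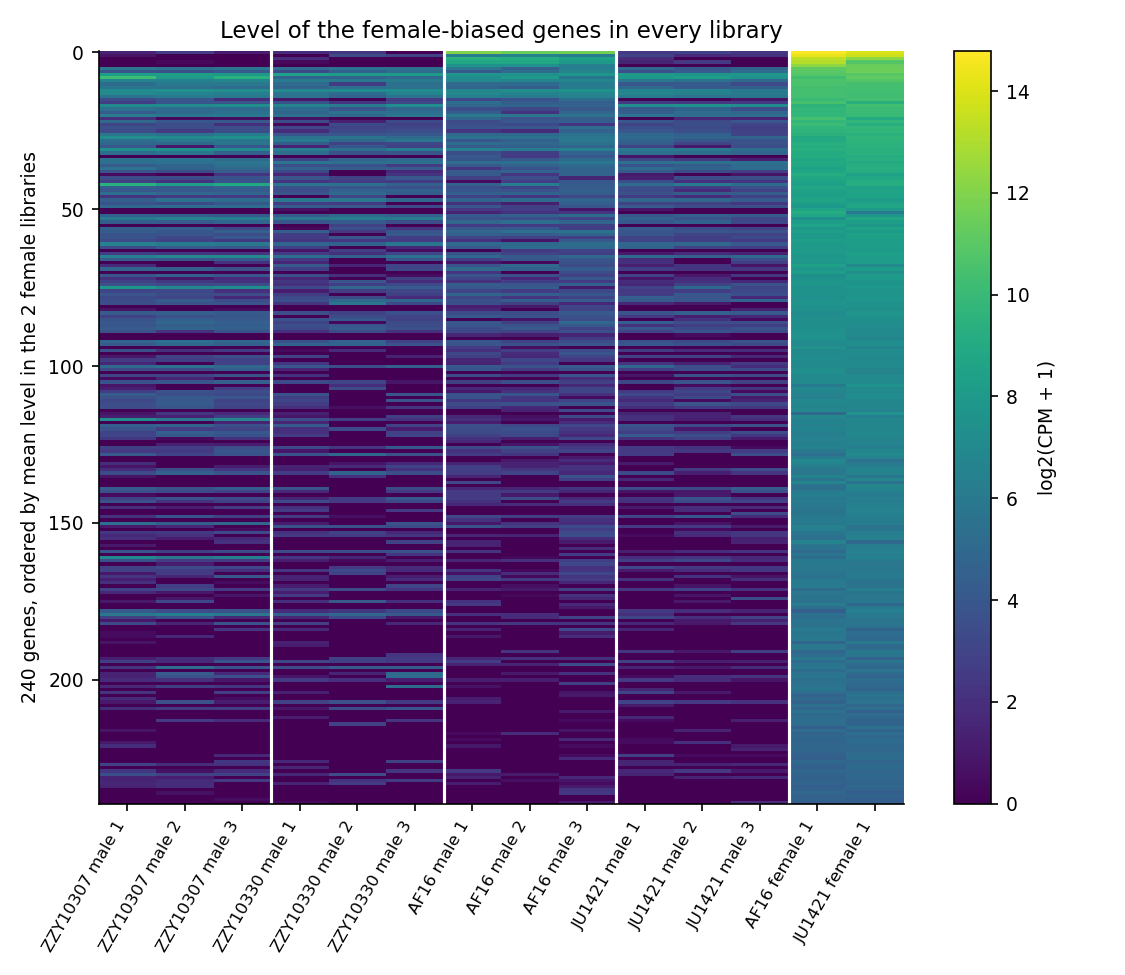
Level of the 240 genes as log2(CPM + 1) in every library, with 1 gene per line and the genes most abundant in females at the top. Both female columns are bright over the whole list, and most lines are dark in the 12 male columns. The lines at the very top are bright in AF16 males and dark in ZZY10307, ZZY10330 and JU1421 males. Over the whole list, more lines are bright in ZZY10307 than in ZZY10330 males.

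Sterile males came nearer to the female level for some of the genes. As a percentage of the JU1421 female level, the median gene stood at 3.18% in ZZY10307 males and at 1.62% in ZZY10330 males, against 1.67% in JU1421 males. AF16 males stood at 3.16% of the AF16 female level. At 12.5% of the JU1421 female level or above were 33 genes in ZZY10307 and 18 in ZZY10330. In the wild-type males the rule itself leaves none there. Selection for a low male level in JU1421 leaves sterile males free to lie higher, and how much of the 33 and 18 this accounts for was not tested. At 25% or more stood 13 genes in ZZY10307 and 5 in ZZY10330, and at 50% or more 6 and 1. In 1 case the male mean exceeded the female level: WBGene00038475 had 59.2, 81.0 and 56.9 CPM in ZZY10307 males, against 59.7 CPM in JU1421 females. WBGene00026213 was at 50% or more in both sterile strains, at 59.2% in ZZY10307 and at 51.9% in ZZY10330.

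**Figure D3:**
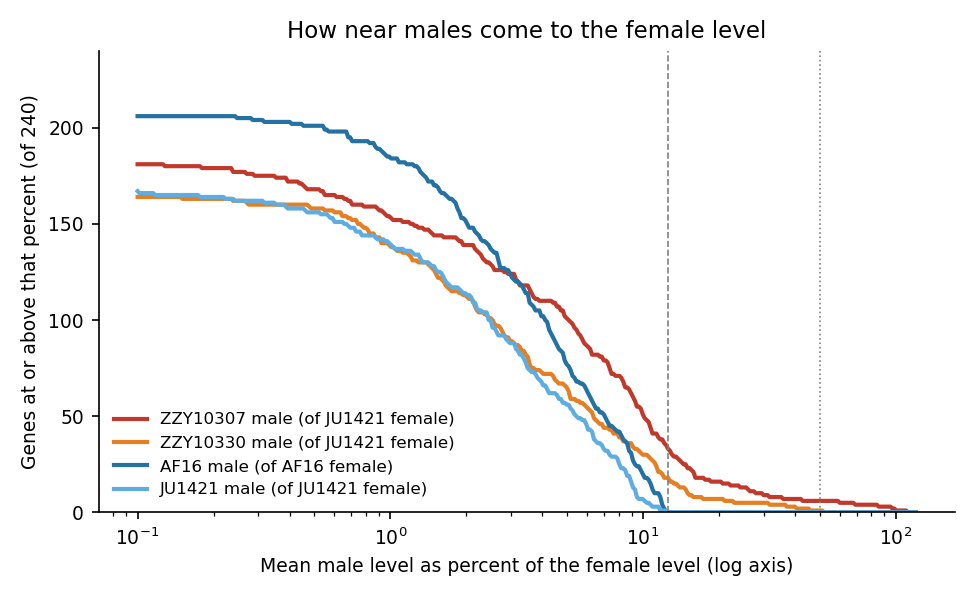
Number of the 240 genes (vertical axis) whose mean male level reached at least a given percentage of the female level (horizontal log axis), with 1 line per male strain and dashed and dotted lines at 12.5% and 50%. Sterile males and JU1421 males are set against JU1421 females, and AF16 males against AF16 females. At 12.5% the ZZY10307 line is at 33 genes and the ZZY10330 line at 18, where the rule puts both wild-type lines at 0.

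The 5 genes most abundant in females divided the male strains sharply, with AF16 males on one side and all other males on the other. WBGene00024796 had 1.74, 4.91 and 1.26 CPM in ZZY10307 males and 2.61, 4.23 and 0.00 CPM in ZZY10330 males, against 4100.1, 2773.7 and 3225.5 CPM in AF16 males and 4.53, 6.51 and 3.99 CPM in JU1421 males. In females it had 15877 CPM in JU1421 and 28354 CPM in AF16. Sterile males and JU1421 males were thus close to zero, and every AF16 male library was at 2774 CPM or more.

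WBGene00000365 had no count in either sterile strain or in JU1421 males, against 195.3, 175.2 and 77.9 CPM in AF16 males, and 2642 CPM in JU1421 females and 5238 CPM in AF16 females. WBGene00034777 had no count in ZZY10307 males and 2.61, 0.00 and 0.00 CPM in ZZY10330 males, against 674.8, 574.8 and 329.9 CPM in AF16 males and 2.64, 0.00 and 0.00 CPM in JU1421 males. WBGene00034800 had 0.00, 0.31 and 0.00 CPM in ZZY10307 males and 0.29, 0.00 and 0.00 CPM in ZZY10330 males, against 455.9, 454.7 and 250.8 CPM in AF16 males and 1.89, 4.45 and 0.00 CPM in JU1421 males. The same division held for all 3 of these genes. The gap was smaller for WBGene00035047, which had 0.70, 0.00 and 0.00 CPM in ZZY10307 males and 0.00, 9.78 and 6.32 CPM in ZZY10330 males, against 73.1, 96.0 and 67.0 CPM in AF16 males and 7.17, 2.40 and 3.26 CPM in JU1421 males.

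The AF16 males did not hold the 5 genes in the ratio of the AF16 females. Their means were 11.9% of the AF16 female level for WBGene00024796, 4.89% for WBGene00034777, 4.19% for WBGene00034800, 2.85% for WBGene00000365 and 0.406% for WBGene00035047. Together the 5 held 0.451% ± 0.0860 of the counts in AF16 males, and at most 0.00162% in any other male library. The sources used here do not give how reads of C. nigoni and C. briggsae origin were assigned to 1 set of gene identifiers. The part of read assignment in any difference between AF16 and the strains of mainly C. nigoni genome was not tested. In females the same 5 genes held 3.82% of the counts in JU1421 and 7.30% in AF16.

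**Figure D4:**
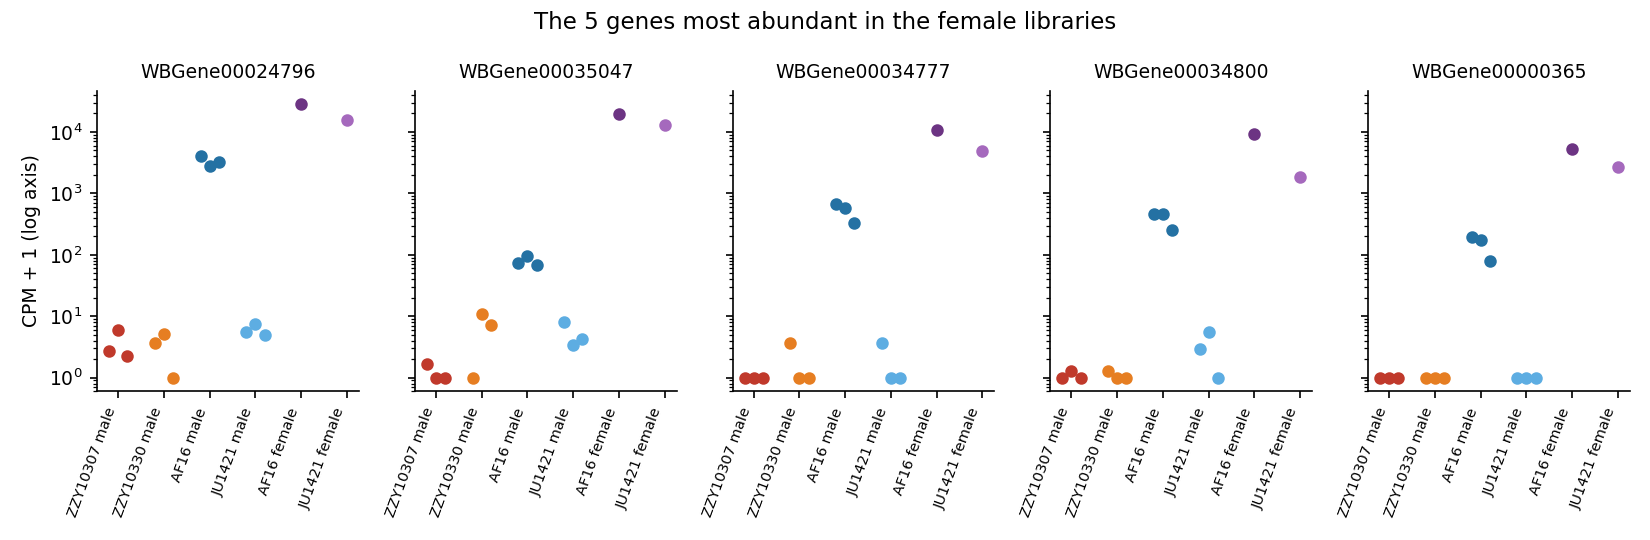
CPM + 1 (log axis) of the 5 genes most abundant in the female libraries, with 1 panel per gene and 1 point per library. AF16 males lie between 67.0 and 4100.1 CPM, and ZZY10307, ZZY10330 and JU1421 males between 0 and 9.78 CPM.

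The next 5 genes by female level were counted in all male strains. WBGene00025820 had 297.6, 313.8 and 269.4 CPM in ZZY10307 males and 349.6, 288.8 and 261.7 CPM in ZZY10330 males, against 205.3, 190.4 and 229.7 CPM in AF16 males and 249.8, 219.2 and 223.4 CPM in JU1421 males. It was above both wild-type strains in every sterile library on the CPM scale, but with TMM factors (library scale factors from edgeR that allow for a change of composition) the log2 fold change against JU1421 was -0.05 in ZZY10307 (SE 0.18, adjusted p = 0.905) and 0.14 in ZZY10330 (SE 0.18, adjusted p = 0.611).

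WBGene00030815 had 99.9, 91.1 and 111.3 CPM in ZZY10307 males and 67.4, 61.0 and 65.7 CPM in ZZY10330 males, against 125.4, 106.1 and 110.0 CPM in AF16 males and 59.6, 47.6 and 33.0 CPM in JU1421 males. WBGene00026714 had means of 53.3 and 43.4 CPM in ZZY10307 and ZZY10330 males, against 54.5 and 24.8 CPM in AF16 and JU1421 males. WBGene00037808 had means of 13.6 and 23.5 CPM in ZZY10307 and ZZY10330 males, against 53.6 and 21.7 CPM in AF16 and JU1421 males, with AF16 libraries spread from 17.5 to 106.2 CPM. WBGene00030815 was called higher in ZZY10307 than in JU1421, with a log2 fold change of 0.71 (SE 0.24, adjusted p = 0.0368), and the call was lost without any 1 of 5 of the 6 libraries, with a highest adjusted p of 0.177. In ZZY10330 it was called lower than in AF16, at -0.95 (SE 0.24, adjusted p = 0.00516), and this held without any 1 library, with a highest adjusted p of 0.0269. WBGene00037808 was called lower in ZZY10307 than in AF16, at -2.26 (SE 0.62, adjusted p = 0.0116), and this was lost without replicate 3 of AF16, where the value was -1.33, and without replicate 2 of ZZY10307. WBGene00026714 was called in no comparison of the sterile strains with a wild-type strain or with each other.

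WBGene00025941 differed between the sterile strains. It had 1171, 291.1 and 710.8 CPM in ZZY10307 males and 26.1, 24.8 and 32.0 CPM in ZZY10330 males, against 145.2, 253.6 and 52.0 CPM in AF16 males and 240.01, 310.3 and 178.4 CPM in JU1421 males. ZZY10330 lay below every other male library, and ZZY10307 overlapped with JU1421. The log2 fold change against JU1421 was -3.39 in ZZY10330 (SE 0.66, adjusted p = 0.00316, edgeR) and 1.18 in ZZY10307 (SE 0.59, adjusted p = 0.196).

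Differences between male strains were tested with edgeR over 13289 genes that passed a filter on low counts, and a gene was called at a Benjamini-Hochberg adjusted p below 0.05. Of the 240 genes, 147 passed the filter and 93 did not. Some of the 147 needed the libraries of a certain strain to pass: 15 needed AF16, 13 ZZY10307, 7 ZZY10330 and 2 JU1421, and a gene can be in more than 1 of these counts. A gene that passes through the strain where it is high was bound to differ there, so calls of such genes are given as a description. The 93 others had mean levels of at most 7.45 CPM in ZZY10307 males and 11.6 CPM in ZZY10330 males, against 8.38 CPM in AF16 males and 3.38 CPM in JU1421 males, with a median of 0 in all of these but AF16, at 0.628 CPM. In females their medians were 46.6 CPM in JU1421 and 50.4 CPM in AF16. Of these 93 nothing can be said beyond the low level.

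In ZZY10307 males, 19 of the 147 genes (12.9%) were higher than in JU1421 males and 2 (1.36%) were lower. Over all genes tested, 9.29% were higher and 13.5% lower. The median log2 fold change was 0.37 for the 147 genes and 0.09 for all genes. JU1421 males took part in the choice of the genes and the sterile males did not, so a low level in JU1421 was built into this comparison. Of the 147 genes, 13 needed ZZY10307 to pass the filter. WBGene00027910, WBGene00033977 and WBGene00038572 are among these and among the 19, and their calls are a description. When genes were chosen by AF16 alone, 203 were tested, of which 26 were higher and 5 lower, and the median was 0.26. Scaling by total counts alone gave 30 higher and 2 lower, where 2476 and 1242 of all 13289 genes were. The median on that scale was 0.75 for the 147 genes and 0.48 for all genes. The count of 19 was 11 without replicate 3 of JU1421, and the count of 2 was 0 without replicate 3 of ZZY10307 and 1 without replicate 1 or 2 of JU1421.

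The calls in ZZY10307 included genes that JU1421 males barely held. WBGene00027910 had 41.1, 21.5 and 30.1 CPM in ZZY10307 males, against 0.00, 0.68 and 0.00 CPM in JU1421 males. With 2 counts in JU1421 in all, the ratio was 127 (counting interval 34.8 to 1054, adjusted p = 0.00243, edgeR). The groups were far apart, and its AF16 male mean was 2.47 CPM. Both WBGene00027910 and WBGene00033977 passed the filter only through ZZY10307, where they are high. WBGene00033977 had 4.87, 5.83 and 6.69 CPM in ZZY10307 males, against no count in JU1421 males, and was at least 15.96-fold higher, taking 3 counts over the group as the floor (adjusted p = 0.0247). The groups did not overlap, but the call was lost without any 1 of 5 of the 6 libraries, at adjusted p of 0.0536 to 0.0697. Between ZZY10307 and AF16 males WBGene00033977 was not called, with a log2 fold change of -0.03 (SE 1.37, adjusted p = 0.991, edgeR).

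WBGene00032962 was both abundant and higher in ZZY10307. It had 686.2, 298.1 and 503.7 CPM in ZZY10307 males and 50.2, 43.1 and 22.8 CPM in ZZY10330 males, against 24.4, 73.8 and 19.96 CPM in AF16 males and 34.7, 71.2 and 36.3 CPM in JU1421 males. Every ZZY10307 library was above all other male libraries, and their mean was 84.1% of the 589.7 CPM of JU1421 females. The log2 fold change was 2.98 against JU1421 (SE 0.53, adjusted p = 0.00125) and 3.34 against AF16 (SE 0.54, adjusted p = 0.000528, 4.20 without replicate 2 of AF16). It was named because it was one of the largest parts of the summed difference, after its values were seen. Among the genes inside the list it is also the one nearest to the ratio threshold.

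WBGene00038475 had 59.2, 81.0 and 56.9 CPM in ZZY10307 males and 20.6, 28.8 and 16.4 CPM in ZZY10330 males, against 2.92, 2.71 and 0.00 CPM in AF16 males and 3.02, 0.00 and 0.00 CPM in JU1421 males. Both sterile strains lay above both wild-type strains in every library. Against JU1421 the log2 fold change was 5.64 in ZZY10307 (SE 0.88, adjusted p = 8.56e-05) and 4.21 in ZZY10330 (SE 0.87, adjusted p = 0.00128). All JU1421 counts came from replicate 1, and without it the gene was at least 127-fold higher in ZZY10307 and at least 43.2-fold higher in ZZY10330.

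The genes lower in ZZY10307 than in JU1421 were WBGene00035047 and WBGene00034800, both among the 5 most abundant in females and named here because there were only 2. For WBGene00035047 there were 2 counts in ZZY10307 and 35 in JU1421, a ratio of 17.9 (counting interval 4.60 to 154, adjusted p = 0.0150). For WBGene00034800 there was 1 count in ZZY10307 and 18 in JU1421, a ratio of 18.4 with an interval of 2.91 to 768 (adjusted p = 0.0195), and the libraries of the groups overlapped. The adjusted p of WBGene00035047 was 0.0642 without replicate 1 of JU1421, 0.0696 without replicate 2 of ZZY10307 and 0.0616 without its replicate 3. That of WBGene00034800 was 0.155 without replicate 2 of JU1421, 0.0674 without replicate 1 of ZZY10307 and 0.0664 without its replicate 3.

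ZZY10330 males differed from JU1421 males in both directions. Of the 147 genes, 9 were higher and 9 lower, or 6.12% each way, where 12.6% of all genes tested were higher and 16.1% lower. The median log2 fold change was -0.08, against -0.03 for all genes. Its sign depended on the scaling: with total counts alone it was 0.11, against 0.20 for all genes. On that scale 13 of the 147 genes were higher and 6 lower, where 2234 and 1570 of all 13289 genes were. The count of higher genes was 5 without replicate 2 or 3 of JU1421 and 4 without replicate 3 of ZZY10330, and that of lower genes was 5 without replicate 2 of JU1421 and 14 without replicate 1 of ZZY10330.

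WBGene00042656 had 0.87, 9.78 and 14.8 CPM in ZZY10330 males, against no count in JU1421 males or in AF16 males. It was at least 21.7-fold higher than in JU1421 males (adjusted p = 0.0138) and 0.0454 was the highest adjusted p without any 1 library. Replicate 1 of ZZY10330 was far lower than the others but still above 0. The gene passed the filter only through the sterile strains, where it is high, so its calls against wild-type males are a description. The gene was also counted in every library of ZZY10307, at 2.78, 4.60 and 5.44 CPM, where its call against JU1421 (adjusted p = 0.0382) was lost without any 1 of the 6 libraries, at 0.0584 to 0.0983.

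WBGene00033592 had 2.03, 0.00 and 0.00 CPM in ZZY10330 males and 9.40, 9.51 and 20.5 CPM in ZZY10307 males, against 14.3, 4.88 and 11.7 CPM in AF16 males and 5.66, 10.6 and 9.06 CPM in JU1421 males. ZZY10330 was below every other male library. The log2 fold change against JU1421 was -3.76 (SE 1.07, adjusted p = 0.0112, edgeR), all its counts in ZZY10330 came from replicate 1, and without that library it was at least 17.5-fold lower. The log2 value was -3.12 without replicate 2 of ZZY10330. A fit of the 6 libraries alone did not call it, with an adjusted p of 0.101.

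Against AF16 males, 16 genes (10.9%) were higher and 12 (8.16%) lower in ZZY10307, where 12.8% and 13.3% of all genes tested were. The median log2 fold change was 0.12, close to the 0.13 of all genes. With total counts alone 23 were higher and 11 lower, where 2662 and 1314 of all 13289 genes were. In ZZY10330, 9 (6.12%) were higher and 29 (19.7%) lower than in AF16, where 13.4% and 13.3% of all genes tested were. The median was -0.53, against 0.07 for all genes. Here too the AF16 males took part in the choice, which favours a low level in AF16, and the count of 29 was 19 without replicate 2 of AF16. The same sterile libraries stand in the comparisons with both wild-type strains, so these counts are not independent. Some genes called here passed the filter only through AF16 or only through ZZY10307, and their calls are a description.

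WBGene00038572 had 126.7, 58.0 and 83.7 CPM in ZZY10307 males and 4.07, 1.85 and 0.00 CPM in ZZY10330 males, against 0.00, 0.27 and 0.00 CPM in AF16 males and 2.64, 3.77 and 2.18 CPM in JU1421 males. With 1 count in AF16, in replicate 2, the ratio of ZZY10307 to AF16 was 832 (counting interval 149 to 32913). The gene passed the filter only through ZZY10307, where it is high, so its calls in ZZY10307 are a description. ZZY10307 males were at the level of the 89.6 CPM of JU1421 females, and all other males near 0. Against JU1421 the log2 fold change was 4.55 in ZZY10307 (SE 0.65, adjusted p = 2.08e-05).

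WBGene00026213 had 3.83, 37.4 and 13.4 CPM in ZZY10307 males and 9.29, 18.8 and 19.8 CPM in ZZY10330 males, against no count in AF16 males and 1.89, 1.03 and 2.90 CPM in JU1421 males. It was at least 60.8-fold higher in ZZY10307 than in AF16 (adjusted p = 0.000188) and at least 49.1-fold higher in ZZY10330 (adjusted p = 0.000228). Every sterile library was above every wild-type male library, and replicate 2 held most of the counts of ZZY10307. Against JU1421 the log2 fold change in ZZY10307 was 2.82 (SE 0.92, adjusted p = 0.0322) and 1.74 without that replicate. That call was lost without any 1 of 5 of the 6 libraries, with a highest adjusted p of 0.336. In ZZY10330 the call against JU1421 (adjusted p = 0.0281) was lost without replicate 1 or 2 of JU1421 or replicate 3 of ZZY10330, at 0.0772, 0.0939 and 0.0686.

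Of the genes lower than in AF16, those with the largest difference were among the 5 most abundant in females. WBGene00034777, WBGene00000365 and WBGene00034800 passed the filter only through AF16, where they are high, and AF16 took part in the choice of the genes, so their differences are given without a p. WBGene00034777 was at least 1529.8-fold lower in ZZY10307, and WBGene00000365 at least 439-fold lower. In ZZY10330, WBGene00000365 was at least 494-fold lower, and WBGene00034800, with 1 count there, in replicate 1, was lower by a ratio of 3817 (counting interval 685 to 150815). These differences stand between strains of mainly C. nigoni genome and C. briggsae, and JU1421 males were as low as the sterile males for WBGene00000365 and WBGene00034777.

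In the comparison of the sterile strains with each other, neither strain compared had a part in choosing the 240 genes. The fit held all 12 male libraries, so wild-type males entered the filter, the scaling and the estimate of spread. The filter on low counts also let in some genes through a sterile strain. Of the 147 genes, 13 were lower in ZZY10330 than in ZZY10307 males and 2 were higher, that is 8.84% lower and 1.36% higher, where 3.44% of all genes tested were lower and 5.07% higher. The median log2 fold change was -0.48, against 0.02 for all genes. Of the 119 genes that passed the filter in the wild-type males alone, a choice made after seeing the data, 10 (8.40%) were lower and 2 (1.68%) higher, with a median of -0.55. Over all 240 genes, the mean CPM was lower in ZZY10330 for 139, higher for 57 and equal for 44. The count of lower genes ranged from 9 to 17 when each of the 6 libraries was left out, and was 12 without replicate 2 of ZZY10330. With total counts alone it was 15, where 746 of all 13289 genes were lower, and the median was -0.64, against -0.13 for all genes. A fit of only the 6 sterile libraries called 11 lower and 0 higher, where 366 and 430 of all 13289 genes were.

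**Figure D5:**
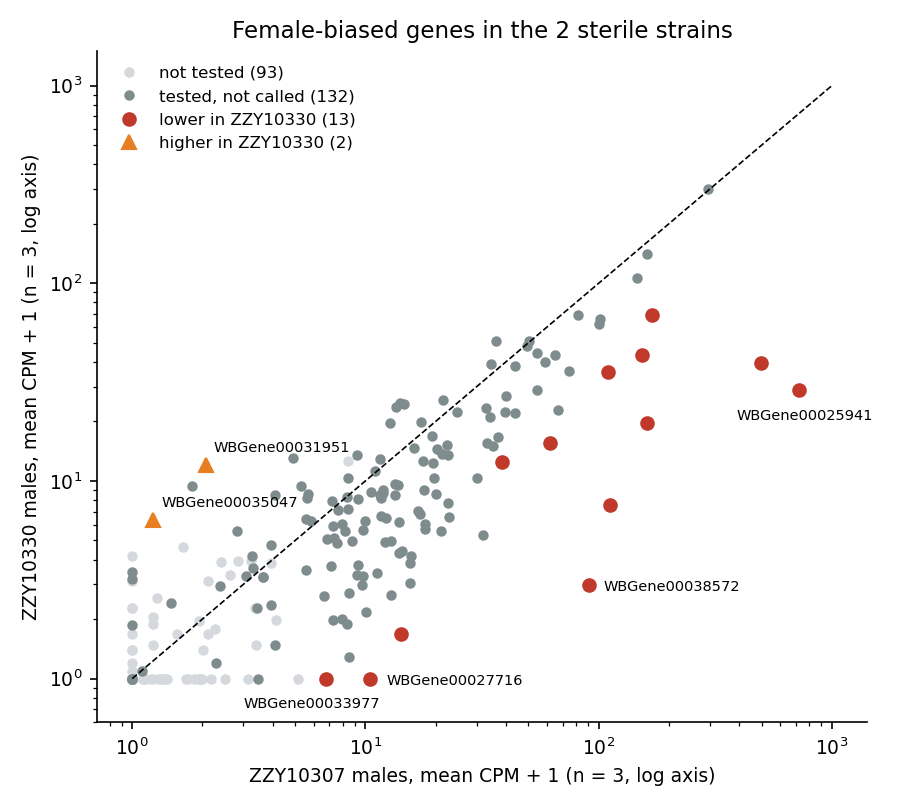
Mean CPM + 1 of the 240 genes in ZZY10307 males (horizontal log axis) and ZZY10330 males (vertical log axis), n = 3 each, with the dashed line where both are equal. Of the 147 genes tested, the 13 called lower in ZZY10330 and the 2 called higher are marked and some are named, and more genes lie below the line (139) than above it (57).

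WBGene00027716 had no count in ZZY10330 males, against 5.57, 11.96 and 10.9 CPM in ZZY10307 males. It was at least 30.4-fold lower in ZZY10330 (adjusted p = 0.0158, edgeR), and the adjusted p stayed at 0.0487 or less without any 1 of the 6 libraries. AF16 males had 0.97, 3.26 and 7.53 CPM and JU1421 males 4.53, 8.22 and 0.36 CPM, so ZZY10330 was the only one of the 4 male strains without a count. WBGene00033977, which passed the filter only through ZZY10307, with no count in ZZY10330 and 4.87 to 6.69 CPM in ZZY10307, was at least 18.4-fold lower in ZZY10330 (adjusted p = 0.0426). Its call, a description because of the filter, was lost without any 1 of the 6 libraries, at 0.0744 to 0.107. Between ZZY10307 and AF16 males this gene was not called, with a log2 fold change of -0.03 (SE 1.37, adjusted p = 0.991).

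The same direction was called for 3 of the abundant genes named above, while WBGene00025820 and WBGene00037808 had a higher mean CPM in ZZY10330. In ZZY10330 against ZZY10307 the log2 fold change was -4.57 for WBGene00025941 (SE 0.68, adjusted p = 0.00251) and -3.53 for WBGene00032962 (SE 0.55, adjusted p = 0.00167). For WBGene00038572 it was -5.27 (SE 0.67, adjusted p = 3.92e-05, -6.21 without replicate 1 of ZZY10330). WBGene00038572 was admitted by the filter only through ZZY10307, where it is high, so its call is a description. No library of the 2 strains overlapped for any of the 3 genes. Within ZZY10307 all 3 genes were highest in replicate 1 and lowest in replicate 2. What these libraries share was not tested. WBGene00038475, at 16.4 to 28.8 CPM in ZZY10330 and 56.9 to 81.0 CPM in ZZY10307, was not called, with a log2 fold change of -1.43 (SE 0.66, adjusted p = 0.207).

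The 2 genes higher in ZZY10330 than in ZZY10307 were near the threshold. WBGene00031951 had 11.9, 12.4 and 8.85 CPM in ZZY10330 males, against 1.04, 2.15 and 0.00 CPM in ZZY10307 males, with a log2 fold change of 3.42 (SE 1.06, adjusted p = 0.0492). The groups did not overlap, yet the call was lost without any 1 of the 6 libraries, at 0.0618 to 0.156. This gene was also called lower in ZZY10307 than in AF16 males, at -3.32 (SE 1.06, adjusted p = 0.0244). That call was lost without replicate 1 of AF16 or replicate 1 or 3 of ZZY10307, with a highest adjusted p of 0.082. Against JU1421 it was not called in ZZY10307, at -1.97 (SE 1.04, adjusted p = 0.202). WBGene00035047, named because only 2 genes were higher, had 52 counts in ZZY10330 and 2 in ZZY10307, a ratio of 23.1 (counting interval 6.08 to 196, adjusted p = 0.0287). All its ZZY10330 counts came from replicates 2 and 3, and its call was lost without either, at 0.108 and 0.0605, and without replicate 2 or 3 of ZZY10307, at 0.120 and 0.114.

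Some genes were called in the same direction against both wild-type strains. In ZZY10307, 11 of the 147 genes were above both JU1421 and AF16 males and 2 were below both, where 3.51% and 8.57% of all genes tested were. In ZZY10330, 4 were above both and 8 below both, where 5.34% and 8.06% of all genes tested were. The 4 in ZZY10330 included WBGene00026213, WBGene00038475 and WBGene00042656, which were also above both in ZZY10307. The 2 below both in ZZY10307 were WBGene00034800 and WBGene00035047. WBGene00042656 passed the filter only through the sterile strains, and WBGene00034800 only through AF16. Among the 11, WBGene00027910 and WBGene00038572 passed it only through ZZY10307. These counts include such genes, whose calls are a description. The count of 8 was 13 without replicate 1 of ZZY10330 and 5 without replicate 2 of JU1421 or replicate 3 of AF16. Both wild-type strains took part in the choice of the genes, and the sterile libraries are the same in both comparisons of each count.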

How the data were processed

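Each of the 14 libraries has a table of gene counts that the authors deposited, in whole numbers and not normalized. The files hold no names or positions. Per the labels' protocols, males gave 300 ng of RNA per library, while the amount for females is not stated. Trimmomatic and edgeR are named in the submitters' processing notes, with no version. Not given in the sources used here are the aligner, the genome build, the annotation, the read counter and its strand setting. Counts of overlapping genes, or of genes with a near-identical copy, cannot be told apart. A separate set of deposited count files for repeat families was not used here. Planned lists by gene function, the introgressed intervals and all sequences need names or positions and were not analysed here.

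Groups came from the strain, sex and phenotype in the labels. The genes, the lists and the tests were chosen with earlier results of these data known. CPM used gene totals. Replicates differed by more than sampling noise, at a chi-square per degree of freedom of 7.26 to 26.5, so none was merged. Correlations between same-numbered libraries of different strains, as deviations from the strain means, were -0.05 to 0.05 over 18 pairs, and the numbers were not taken as pairs. Counts of the 12 male libraries were filtered with filterByExpr at a minimum count of 10, scaled by TMM and fitted with 1 coefficient per strain by the quasi-likelihood test of edgeR 4.0.16 (robust, R 4.3.3). P-values were adjusted by Benjamini-Hochberg over 13289 genes and called below 0.05. Fold changes are on the TMM scale and levels in CPM. Where a group had no count, the fold is a bound against 3 counts over the group. Ratios with 1 to 3 counts have an exact 95% interval. Intervals and floors cover counting error only. The code was tested on simulated data. List medians were the same to 2 decimals with zero groups at their bound.

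Named genes are the 10 with the highest mean female CPM, and, per comparison, called genes whose mean in the higher strain reached 5 CPM and whose libraries did not overlap, by size of log2 fold change. Up to 5 each way were planned and 2 are given, since identifiers carry no names. Others are marked as chosen after their values were seen, or appear for their place in a measure described beside them. Alternatives were RLE factors, total counts, no filter, DESeq2 1.42.0, a replicate block, the 6 libraries compared, each library left out, other thresholds and, added later, genes that pass the filter in wild-type males alone.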

Additional observations from a re-analysis of the deposited data

Results flagged for a closer look

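The sterile strains differed from each other, tested directly between them, in 13 genes lower and 2 genes higher in ZZY10330 than in ZZY10307 males (edgeR, 147 genes tested). That is 8.84% lower and 1.36% higher, where 3.44% and 5.07% of all genes tested were. Some of the 13, WBGene00033977 among them, passed the filter only through ZZY10307, and their calls are a description. Both genes higher in ZZY10330 were near the threshold, with log2 fold changes of 3.42 for WBGene00031951 (adjusted p = 0.0492) and 4.40 for WBGene00035047 (adjusted p = 0.0287). Of the lower genes, WBGene00027716 and WBGene00033977 had no count in ZZY10330, and their fitted log2 values of -7.62 and -6.92 depend on the prior count of the fit, so the bounds of at least 30.4-fold and at least 18.4-fold lower are to be read in their place. All ZZY10330 libraries were above all ZZY10307 libraries for WBGene00031951 and below them for WBGene00027716 and WBGene00033977, while WBGene00035047 was at 0.00, 9.78 and 6.32 CPM in ZZY10330, against 0.70, 0.00 and 0.00 CPM in ZZY10307.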

How the results depend on the processing

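Over all 53 calls of the 20 genes named in the text, 539 of 636 recalculations stayed past the threshold in the same direction, 97 did not, and 0 reversed. Of 222 recalculated counts, 158 were within 1.5 times. Values that were not are given here, and their cause was not tested, except that lists of other thresholds differ in length (493 genes at 10 CPM and 1/4, 107 at 40 CPM and 1/16, 315 by AF16 alone, 395 by JU1421 alone). In that order of thresholds, genes higher in ZZY10307 than JU1421 were 48, 7, 26 and 59, and by AF16 alone 5 were lower. For ZZY10330 against JU1421, 26, 3, 20 and 30 were higher, and 20, 4 and 15 lower in the first 3 lists. For ZZY10307 against AF16, 50, 3, 33 and 33 were higher. For ZZY10330 against AF16, 31, 1, 26 and 18 were higher, and 47 (10 CPM), 17 (40 CPM) and 47 (JU1421 alone) lower. For ZZY10330 against ZZY10307, 6, 1 and 9 were higher in the first 3 lists, and 35 (10 CPM), 5 (40 CPM) and 30 (JU1421 alone) lower.

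A fit of only the 6 libraries compared called 30 higher in ZZY10307 than JU1421, 1 lower in ZZY10330 than JU1421, 20 lower in ZZY10307 than AF16, 5 higher and 16 lower in ZZY10330 than AF16, and 0 higher in ZZY10330 than ZZY10307. Of all 13289 genes, that fit called 1611 higher in ZZY10307 and 1542 lower in ZZY10330 than JU1421. It called 2181 lower in ZZY10307 than AF16, 1319 higher and 1362 lower in ZZY10330 than AF16, and 430 higher in ZZY10330 than ZZY10307. There, 0 genes were below both wild-type strains in ZZY10307 and 1 in ZZY10330. Total counts gave 30 higher in ZZY10307 than JU1421 and 1 higher in ZZY10330 than ZZY10307, against 2476 and 502 of all 13289 genes. Without a filter, 4 were lower in ZZY10307 than JU1421, 4 below both wild-type strains there, and 4 higher in ZZY10330 than ZZY10307. The numbers do not pair the samples, and with a replicate block 5 genes were higher in ZZY10330 than JU1421 and 0 higher in ZZY10330 than ZZY10307. Of all 13289 genes, 1567 and 565 were. RLE factors and DESeq2 left every count within 1.5 times of the value given in the text.

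Leaving out each library gave 11 to 16 higher and 0 to 2 lower in ZZY10307 than JU1421, 4 to 10 higher and 5 to 14 lower in ZZY10330 than JU1421, 19 to 29 lower in ZZY10330 than AF16, and 0 to 2 higher in ZZY10330 than ZZY10307. The count of 0 there was met without replicate 2 or 3 of ZZY10307 or replicate 3 of ZZY10330. Below both wild-type strains were 0 to 2 genes in ZZY10307 and 5 to 13 in ZZY10330. Depth limits the list: 93 of 240 genes were too low in males to test.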
